A study of Mus musculus with 8 samples.

Results

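The constitutive proteasome genes are the genes on the array whose symbol starts with Psma, Psmb, Psmc or Psmd and a number, without Psmb8, Psmb9 and Psmb10, which encode the inducible subunits of the immunoproteasome. The rule used symbols alone and no measured value. It took in 34 of the 16593 named genes of the array, with 51 of 25697 probes. The samples were livers of 4 wild type and 4 TgC6hp55 mice, all untreated C57BL/6J males aged 21 weeks, with 1 Illumina Mouse Ref-8 v2.0 array for each liver. The TgC6hp55 mice carry a transgene in which the promoter of Col6a1 (CollagenVI), active in mesenchymal cells, drives the human TNF receptor TNFR1, followed by the human growth hormone (hGH) minigene. The study's main line came from 1 founder male, in which the insertion interrupted Icoslg and Dnmt3l, and the labels do not state from which founder these livers came.

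The proteasome is the protease that degrades most ubiquitin-tagged proteins in the cytosol and nucleus. Its core particle is a barrel of outer alpha rings (Psma genes), which gate the entry, and inner beta rings (Psmb genes), of which Psmb5, Psmb6 and Psmb7 encode the subunits that cut proteins. The regulatory particle caps the barrel, with ATPases (Psmc genes) that unfold the substrate and non-ATPase subunits (most Psmd genes) that bind ubiquitin chains, remove them or hold the particle together. When cells are exposed to interferon gamma, Psmb8, Psmb9 and Psmb10 take the places of Psmb5, Psmb6 and Psmb7. The transcription factor Nfe2l1 is known to raise the proteasome genes together when proteasome capacity is short.

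Of the 34 genes, 30 were tested, 12 of the core particle and 18 of the regulatory particle. A probe was tested where 4 or more of the 8 arrays, whichever group they belonged to, gave it a detection p under 0.05, the p of its signal against control beads that match no mouse gene. Where a gene had several such probes, the probe with the highest mean signal stood for it. The probes of Psma1, Psma6 and Psmc6 were detected on 0 arrays, and that of Psmc3ip on 1. These are probes not above background, and their genes' levels remain unmeasured here. Psmc3ip encodes a factor of meiotic recombination and is no proteasome subunit, and it entered by its symbol alone. No probe annotated as Psma8, Psmb11 or Psmd3 was used here. Among the 30 tested genes, Psmd5, Psmd9 and Psmd10 encode chaperones that help to assemble the base of the regulatory particle and are not subunits of the finished proteasome.

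All values are log2 signals after background correction and quantile normalization, and all changes are given as log2 of the TgC6hp55 over the wild type level, compared with limma's moderated test (two-sided). The Benjamini-Hochberg adjustment ran over all 8540 features tested, and the threshold was 0.05. The mean intensity per array was 167 to 179 in the wild type group and ran from 112 (replicate 4) to 224 (replicate 3) in the TgC6hp55 group, with 10541 to 12011 probes detected per array over both groups. All 7 hepatocyte markers on the array were detected in every liver. Their summed level spanned 15.5 to 15.6 on the log2 scale in the wild type livers and 15.4 to 15.6 in the TgC6hp55 livers, with 0 of 7 called and 3 at an unadjusted p under 0.05 (limma). These 3 split, with Cps1 lower (-0.42) and Alb (0.38) and Serpinc1 (0.27) higher. The sum is carried by the brightest markers and does not show this, and the Alb probe was dim (5.37 in the wild type group). In whole liver tissue, fewer cells of a type and less RNA per cell cannot be told apart. Nothing in the labels states whether the 4 livers of a group came from separate litters or were prepared together, so p-values measure the spread between these livers.

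Levels of the constitutive proteasome genes differed little between the groups, with 26 of 30 log2 fold changes below 0. Over all features tested, 51.6% were below 0. The median over the 30 genes was -0.13 (range -0.52 to 0.16), where the median of all features was -0.0080. Psmd14 and Psmb7 fell in the TgC6hp55 livers (adjusted p under 0.05), and none of the 30 rose. This is 2 of 30, against a background of 4.51% of all features called lower and 6.48% called higher, so the share of calls was close to that of the array as a whole. At an unadjusted p under 0.05, 7 of 30 were lower and 0 higher, against 11% and 13.5% of all features. In 7 genes every TgC6hp55 liver lay below every wild type liver (Psma5, Psmb3, Psmb5, Psmb7, Psmc4, Psmd6 and Psmd14), which held for 7.55% of all features. The 30 genes were measured in the same RNA and are no independent replicates, so the side on which most of them lay is a description.

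**Figure D1:**
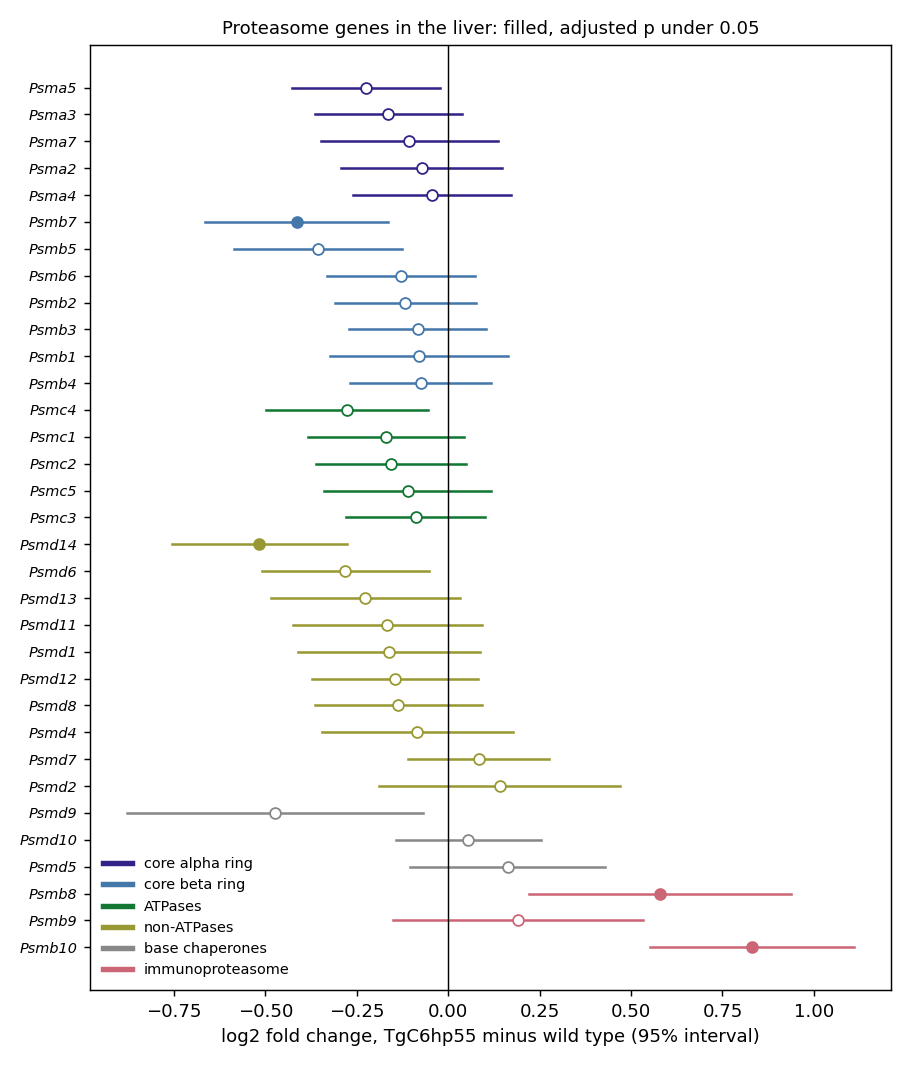
Log2 fold change of TgC6hp55 over wild type (x axis) for the 30 tested constitutive genes and the 3 immunoproteasome genes (rows), with 95% confidence intervals from limma as lines. Filled points have an adjusted p under 0.05: Psmd14 and Psmb7 on the lower side, and Psmb8 and Psmb10 on the higher side.

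The changes were small on the scale used, and the precision of the arrays bounds them on that scale. All 30 estimates lay within 1.5-fold of the wild type mean. The 95% confidence intervals excluded a 1.5-fold rise for 30 of 30 genes and a 1.5-fold fall for 26 of 30. The exceptions were Psmb5, Psmb7, Psmd9 and Psmd14. All signals include an added offset of 16, which shrinks the folds of dim probes. For dim genes such as Psmd2, Psmd6 and Psmd9 these limits therefore do not bound the change in RNA. The median standard error (SE) was 0.10 over the members and 0.12 over all features.

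The core particle and the regulatory particle lay at similar values, and the difference between them was not tested. In the core particle 12 of 12 genes had a log2 fold change below 0, with a median of -0.11 (range -0.41 to -0.044) and 1 call. In the regulatory particle 14 of 18 were below 0, with a median of -0.15 (range -0.52 to 0.16) and 1 call. By subcomplex, the median was -0.11 for the 5 alpha ring genes, -0.12 for the 7 beta ring genes, -0.16 for the 5 ATPases and -0.15 for the 10 non-ATPase subunits. The 3 base chaperones had a median of 0.055.

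Individual livers did not shift equally. The median deviation of the 30 genes from their wild type means was -0.13 in TgC6hp55 replicate 1, -0.061 in replicate 2, -0.20 in replicate 3 and -0.16 in replicate 4. In the wild type livers it ran from -0.028 in replicate 3 to 0.019 in replicate 1, and the groups did not overlap in this measure. Each gene is measured from its wild type mean, so wild type medians lie near 0 by construction. The separation mostly restates the fold changes and adds no support to them. Over all features, the same median ran from -0.018 to 0.016 over the 8 livers. TgC6hp55 replicates 3 and 4 each held the lowest value of all 8 livers for 11 of the 30 genes, and wild type replicate 1 held the highest for 9. The matching shares over all features are not given here, so these counts are not read as a trait of the proteasome genes. Replicates 3 and 4 are also the brightest and the dimmest array, and the part of brightness in the result was not tested. Without these 2 livers the median over the 30 genes was -0.10, 26 of 30 remained below 0 and 0 genes were called. When arrays were scaled to a common median and not quantile normalized, which leaves more of the brightness in, the median was -0.25 where that of all features moved to -0.059, and the liver medians ran from -0.80 (replicate 4) to 0.13 (replicate 3), so that TgC6hp55 replicate 3 lay above the wild type livers. With scaling over the 9020 probes detected on all arrays the median was -0.18, and the 4 livers lay between -0.27 and -0.15.

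**Figure D2:**
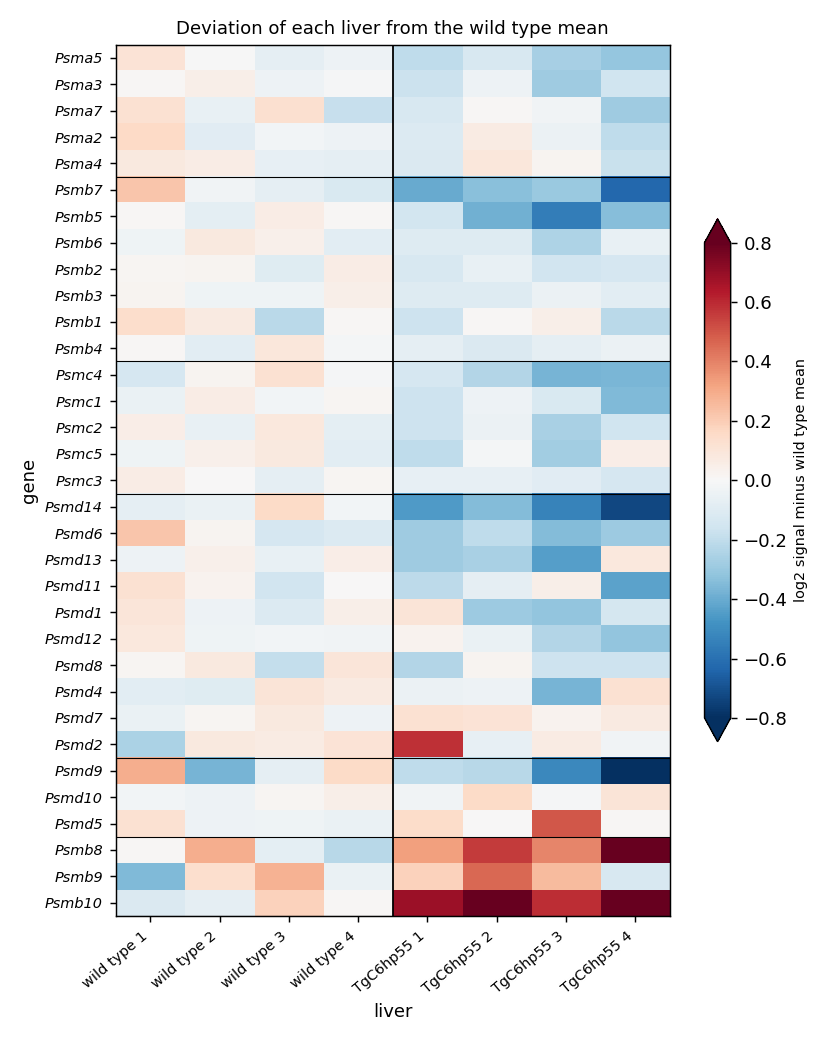
Deviation of the log2 signal from the gene's wild type mean (colour) for each liver (columns) and gene (rows), with lines between the subcomplexes and before the 3 immunoproteasome genes. The rows of Psmb7, Psmb5, Psmc4, Psmd14 and Psmd6 are blue in all 4 TgC6hp55 livers, and so are others, such as Psma5, Psma3 and Psmb6. The rows of Psmb8 and Psmb10 are red in these livers.

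Psmd14 had the largest fall among the members. It encodes the metalloprotease of the regulatory particle that cuts ubiquitin chains off the substrate as it enters. Its log2 signal (probe ILMN_2933914) was 7.50, 7.52, 7.73 and 7.55 in wild type replicates 1 to 4 and 7.12, 7.23, 7.04 and 6.84 in TgC6hp55 replicates 1 to 4. The highest TgC6hp55 liver lay below the lowest wild type liver, and TgC6hp55 replicate 4 was the lowest of all. The mean fell from 7.57 ± 0.10 (SD, n = 4) to 7.06 ± 0.16 (SD, n = 4) and the log2 fold change was -0.52, a percent change of -30.1 (SE 0.11, adjusted p = 0.0102 from limma). The call held with any single liver left out and was lost without TgC6hp55 replicates 3 and 4 (-0.40, adjusted p = 0.0762 from limma) and with median scaling (-0.60, adjusted p = 0.242 from limma).

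Psmb7, which encodes the core subunit with trypsin-like activity, also fell. Its log2 signal (probe ILMN_1233153) was 10.33, 10.08, 10.03 and 9.98 in wild type replicates 1 to 4 and 9.70, 9.77, 9.81 and 9.48 in TgC6hp55 replicates 1 to 4. All 4 TgC6hp55 livers lay below the wild type livers. The log2 fold change was -0.41 (SE 0.11, adjusted p = 0.0384 from limma), with means of 10.10 ± 0.15 and 9.69 ± 0.15 (SD, n = 4 each). The gene has 3 probes that passed, and the other two gave log2 fold changes of -0.34 (ILMN_2836147, adjusted p = 0.112 from limma with all probes kept) and -0.22 (ILMN_1221340, adjusted p = 0.303). On the last of these, TgC6hp55 replicate 3 at 9.97 lay above 3 of the wild type livers. The call was often lost with 1 liver fewer: without wild type replicate 1, 2 or 3 the adjusted p from limma was 0.107, 0.0887 and 0.0577, and without TgC6hp55 replicate 1, 2 or 4 it was 0.0795, 0.0601 and 0.0714. With any 1 liver left out, the log2 fold change stayed between -0.46 and -0.34. The call was also lost without TgC6hp55 replicates 3 and 4 (-0.37, adjusted p = 0.135), with median scaling (-0.55, adjusted p = 0.342), with no filter on dim probes (adjusted p = 0.0569) and with the plain unpaired test (adjusted p = 0.0813).

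Psmb5, which encodes the core subunit with chymotrypsin-like activity, lay just outside the threshold. Its log2 signal was 8.48, 8.39, 8.53 and 8.48 in wild type replicates 1 to 4 and 8.33, 8.09, 7.92 and 8.13 in TgC6hp55 replicates 1 to 4. The groups did not overlap, and TgC6hp55 replicate 3 was the lowest. The log2 fold change was -0.36 (SE 0.11, adjusted p = 0.0515 from limma), and the 95% interval ran from -0.59 to -0.13. It passed the threshold in 6 alternatives, among them the authors' spline normalized values (-0.34, adjusted p = 0.0408) and the fit without TgC6hp55 replicate 1 (-0.43, adjusted p = 0.0317). Psmb6, the core subunit with caspase-like activity, had a log2 fold change of -0.13 (95% interval -0.33 to 0.073).

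The other beta ring genes hold structural places and lay near 0. Psmb1, Psmb2, Psmb3 and Psmb4 had log2 fold changes between -0.12 and -0.075, and their intervals reached down to at most -0.32. Psmb3 was separated between the groups without passing the test, from 10.76 to 10.84 in the wild type livers and from 10.69 to 10.75 in the TgC6hp55 livers. The change, -0.083, did not exceed the spread that the test allows for (adjusted p = 0.608 from limma).

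In the alpha ring, the lowest p-values were those of Psma5 and Psma3, and neither passed. Psma5 had log2 signals of 11.14, 11.02, 10.95 and 10.99 in wild type replicates 1 to 4 and 10.82, 10.90, 10.76 and 10.72 in TgC6hp55 replicates 1 to 4. The groups did not overlap, with a log2 fold change of -0.22 (SE 0.093, adjusted p = 0.157 from limma). Psma3 had 11.20, 11.24, 11.16 and 11.19 in the wild type livers and 11.03, 11.16, 10.91 and 11.04 in the TgC6hp55 livers. Its TgC6hp55 replicate 2 reached the lowest wild type liver, and the log2 fold change was -0.16 (adjusted p = 0.307). Psma2, Psma4 and Psma7 lay between -0.11 and -0.044.

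Among the ATPases, which form the ring that pulls the substrate into the core, 5 of 5 log2 fold changes were below 0 and none passed the test. Psmc4 had log2 signals of 10.32, 10.48, 10.58 and 10.45 in wild type replicates 1 to 4 and 10.32, 10.23, 10.09 and 10.09 in TgC6hp55 replicates 1 to 4. The highest TgC6hp55 value, 10.3226 in replicate 1, lay only just below the lowest wild type value, 10.3241 in replicate 1. The log2 fold change was -0.28 (SE 0.10, adjusted p = 0.111 from limma). Psmc1 had 8.94, 9.05, 8.97 and 9.01 in the wild type livers and 8.83, 8.95, 8.87 and 8.64 in the TgC6hp55 livers. The groups overlapped by 1 liver, and the log2 fold change was -0.17 (adjusted p = 0.319). Psmc2, Psmc3 and Psmc5 had -0.16, -0.089 and -0.11, and a second probe of Psmc5 gave -0.22.

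Among the non-ATPase subunits, Psmd6, a subunit of the lid, came after Psmd14 in p. Its log2 signal was low, with 5.38, 5.18, 5.02 and 5.05 in wild type replicates 1 to 4 and 4.87, 4.96, 4.81 and 4.87 in TgC6hp55 replicates 1 to 4. The groups did not overlap, and the log2 fold change was -0.28 (SE 0.10, adjusted p = 0.120 from limma). Psmd13, Psmd11, Psmd12 and Psmd8, also of the lid, lay between -0.23 and -0.14, each with an interval that included 0. Psmd1, a scaffold subunit of the base, had -0.16, and Psmd4, a ubiquitin receptor, had -0.084. Psmd7, the lid subunit that pairs with Psmd14, had 0.083 by its brighter probe and -0.23 by another, so its direction was not settled. Psmd2, a scaffold subunit that binds ubiquitin-like carriers, had 0.14 on a probe near background that was detected on 7 of 8 arrays. This value rested on TgC6hp55 replicate 1 (5.28, where the other TgC6hp55 livers lay at 4.63 to 4.76) and was -0.0080 without it.

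The 3 base chaperones did not move together. Psmd9 had log2 signals of 5.68, 5.02, 5.32 and 5.54 in wild type replicates 1 to 4 and 5.19, 5.17, 4.87 and 4.44 in TgC6hp55 replicates 1 to 4. Its spread within groups was wide, the groups overlapped, and the log2 fold change of -0.47 did not pass (SE 0.18, adjusted p = 0.135 from limma). Its second probe gave -0.051. Psmd10, also known as gankyrin, had 0.055, with 0.0087 and -0.033 on its other probes, and Psmd5 had 0.16, with TgC6hp55 replicate 3 highest at 6.09.

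**Figure D3:**
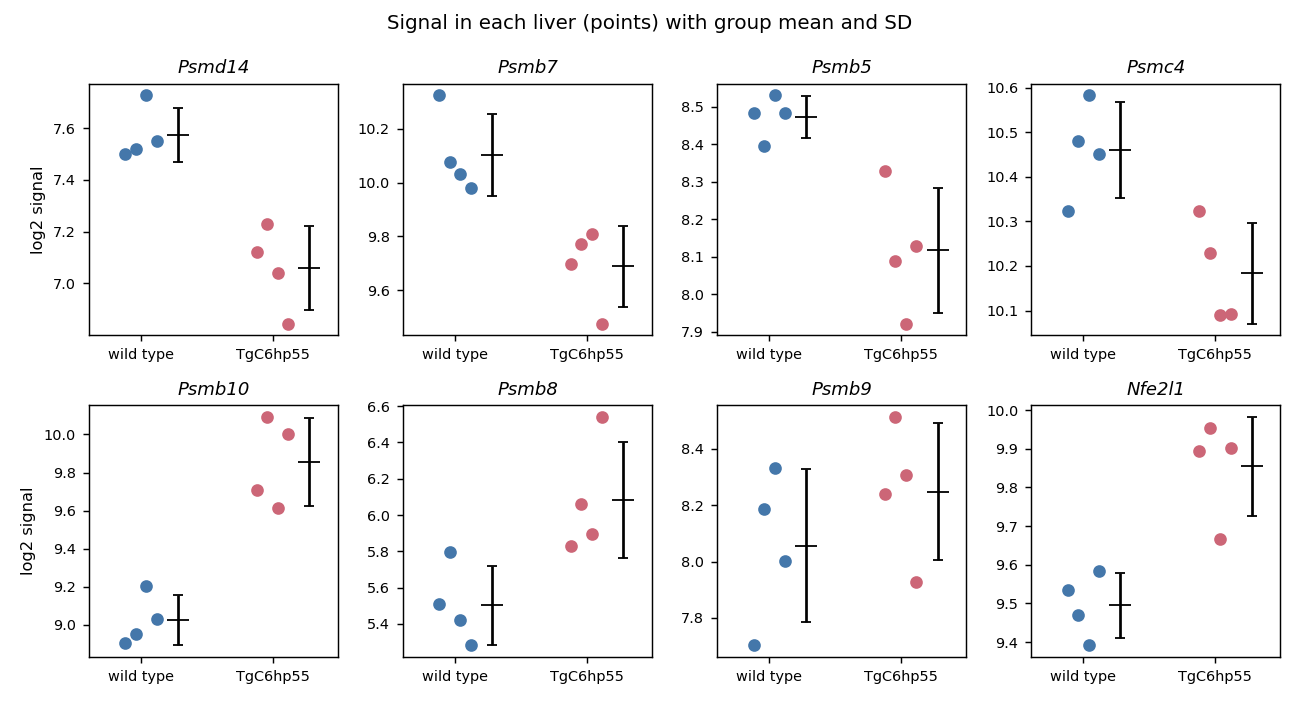
Log2 signal (y axis, a separate scale in each panel) in each of the 4 wild type and 4 TgC6hp55 livers (points), with the group mean and SD as bars. In Psmd14, Psmb7 and Psmb5 every TgC6hp55 liver lies below the wild type livers, in Psmc4 the groups nearly touch, and in Psmb10, Psmb8 and Nfe2l1 every TgC6hp55 liver lies above. Psmb9 overlaps.

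The inducible subunits were compared as the counterparts of the constitutive ones, and 2 of the 3 rose in the TgC6hp55 livers. Psmb10, which replaces Psmb7, had log2 signals of 8.91, 8.95, 9.20 and 9.03 in wild type replicates 1 to 4 and 9.71, 10.09, 9.61 and 10.01 in TgC6hp55 replicates 1 to 4. The groups were well separated, with a log2 fold change of 0.83 (SE 0.13, adjusted p = 0.00139 from limma) and 0.79 on a second probe. Psmb8, which replaces Psmb5, had 5.51, 5.79, 5.42 and 5.28 in the wild type livers and 5.83, 6.06, 5.90 and 6.54 in the TgC6hp55 livers. TgC6hp55 replicate 4 was the highest, replicate 1 lay only just above the highest wild type liver, and the log2 fold change was 0.58 (SE 0.16, adjusted p = 0.0429). Psmb9, which replaces Psmb6, overlapped between the groups, with a log2 fold change of 0.19 (95% interval -0.15 to 0.53, adjusted p = 0.501). The call of Psmb8 was lost without any 1 of wild type replicates 1, 3 and 4 and TgC6hp55 replicates 2, 3 and 4 (adjusted p from limma 0.0523 to 0.109). It was also lost with median scaling (adjusted p = 0.187), no filter on dim probes (0.111), array weights (0.0566) and the plain unpaired test (0.150), and without TgC6hp55 replicates 3 and 4 (0.141). The call of Psmb10 was lost only with median scaling, among all alternatives tried (0.69, adjusted p = 0.0685).

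Within each liver, the log2 signal of the inducible subunit minus that of its constitutive counterpart was compared between the groups. A single value of this difference depends on the 2 probes' own brightness, and only its change between groups is read. Psmb10 minus Psmb7 was -1.42, -1.12, -0.83 and -0.95 in wild type replicates 1 to 4 and 0.0096, 0.32, -0.20 and 0.53 in TgC6hp55 replicates 1 to 4. It was higher in all 4 TgC6hp55 livers, by 1.25 (exact permutation test over livers, two-sided, p = 0.0286, adjusted p = 0.0429 over 3 pairs). Psmb8 minus Psmb5 was -2.97, -2.60, -3.11 and -3.20 in the wild type livers and -2.50, -2.03, -2.03 and -1.59 in the TgC6hp55 livers. It was higher by 0.93, again without overlap (exact p = 0.0286, adjusted p = 0.0429). Psmb9 minus Psmb6 changed by 0.32, and the groups overlapped (exact p = 0.171, adjusted p = 0.171). The smallest p that 4 against 4 livers allow is 0.0286. In every TgC6hp55 liver, Psmb10 and Psmb8 lay above all wild type livers, and Psmb7 and Psmb5 lay below them. The separation of these 2 pairs, and so their p, was therefore fixed by the genes already described and adds no support to them. Of the change of 1.25, 0.83 was the rise of Psmb10 itself, and of 0.93, 0.58 was that of Psmb8. Leaving out any 1 wild type liver, or TgC6hp55 replicate 4, took the adjusted p of the first 2 pairs to 0.0571 or 0.0857, while the changes stayed within 1.12 to 1.37 and 0.79 to 1.09. The groups of these 2 pairs stayed without overlap there, and the exact test had fewer splits of the livers.

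**Figure D4:**
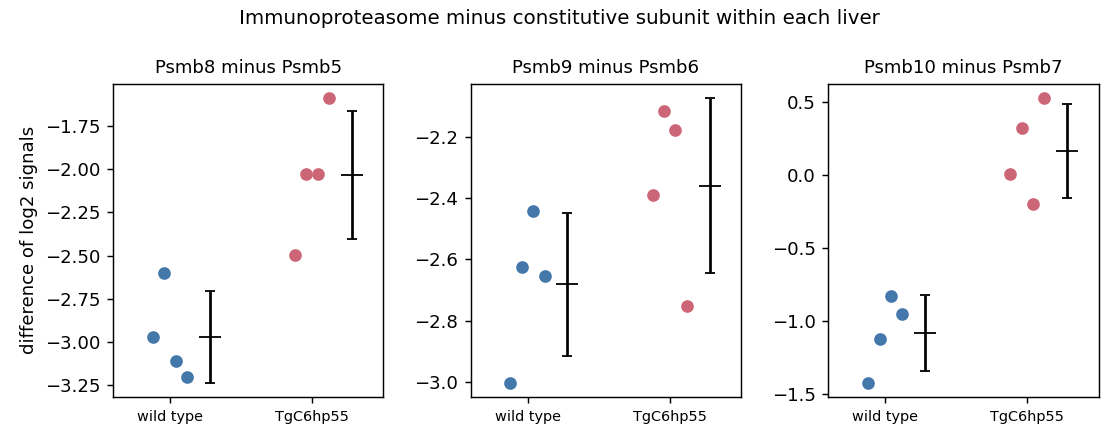
Log2 signal of the inducible minus the constitutive subunit (y axis, a separate scale in each panel) within each of the 4 wild type and 4 TgC6hp55 livers (points), with the group mean and SD as bars. For Psmb8 minus Psmb5 and Psmb10 minus Psmb7 all TgC6hp55 livers lie above all wild type livers, and for Psmb9 minus Psmb6 the groups overlap.

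Some markers of immune and sinusoidal cells, which are known to express inducible subunits too, rose in the same livers. Of all features tested, 6.48% were called higher, and 13.5% were higher at an unadjusted p under 0.05 (limma). Of 5 macrophage markers tested, Adgre1 rose (0.92, adjusted p = 0.0324 from limma). Marco passed too (adjusted p = 0.0417), but it was detected on 1 of 4 wild type arrays and 4 of 4 TgC6hp55 arrays, so it was tested only through the group where it is high, and its fold is not read. Leaving Marco aside, Adgre1, Clec4f (0.91), Vsig4 (0.99) and Lyz2 (0.97) were each higher at an unadjusted p under 0.05 (limma). Of these only Adgre1 passed after adjustment, where Clec4f, Vsig4 and Lyz2 had adjusted p of 0.106, 0.101 and 0.0958 from limma. The summed level of the 6 macrophage markers on the array spanned 8.43 to 10.2 in the wild type livers and 9.91 to 10.7 in the TgC6hp55 livers. Cd5l was detected on 0 arrays. Of 3 T and NK cell markers tested, Ccl5 rose (0.84, adjusted p = 0.00184 from limma). At an unadjusted p under 0.05, 2 were higher, Ccl5 and Cd3g. Cd3g was detected on 1 of 4 wild type arrays and 4 of 4 TgC6hp55 arrays, and Cd3e on 1 and 3. Both passed the filter only through the group where they are high, and their folds are not read. The summed level of 6 spanned 6.95 to 7.11 and 7.30 to 7.49, but 0 of the 6 were detected on all arrays. This sum holds background and includes Cd3g and Cd3e, so it is not read either. Cd8a and Gzma were detected on 0 arrays. Of 5 markers of the sinusoidal endothelium tested, Pecam1 rose (0.48, adjusted p = 0.0132) and 5 of 5 were higher at an unadjusted p under 0.05, with a median of 0.36. The summed level of 6 spanned 10.7 to 11.3 and 11.3 to 11.4. Kdr was detected on 1 of 4 wild type and 2 of 4 TgC6hp55 arrays, lay at -0.068 and was not tested. The B cell, neutrophil, bile duct and stellate cell lists had 0 calls and 0 genes at an unadjusted p under 0.05 in limma (summed levels 5.88 to 6.26 and 6.18 to 6.51, 5.97 to 6.62 and 6.25 to 6.79, 5.88 to 6.24 and 5.93 to 6.02, and 9.70 to 10.3 and 10.1 to 10.5, wild type before TgC6hp55), and Ms4a1 and Krt19 were detected on 0 arrays. The part of these cells in the levels of Psmb8 and Psmb10, or of the constitutive genes, was not tested.

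Other parts of the pathway gave 1 call among 29 genes tested, where 11% of all features were called in either direction. Nfe2l1, the transcription factor that drives proteasome genes, rose, with log2 signals of 9.53, 9.47, 9.39 and 9.58 in wild type replicates 1 to 4 and 9.89, 9.95, 9.67 and 9.90 in TgC6hp55 replicates 1 to 4. Every TgC6hp55 liver lay above every wild type liver. The log2 fold change was 0.36 (SE 0.10, adjusted p = 0.0409 from limma). This call was lost without any 1 liver other than TgC6hp55 replicate 3 (adjusted p 0.0582 to 0.111) and with median scaling (0.24, adjusted p = 0.753), scaling over detected probes (0.31, adjusted p = 0.0884) and TgC6hp55 replicates 3 and 4 left out (0.43, adjusted p = 0.0505). Of the other 5 tested regulators of proteasome genes, 0 passed. None passed among the 4 genes of activators, the 4 of core assembly, the 7 of ubiquitin receptors and bound deubiquitinases or the 8 of the p97 complex, which pulls ubiquitinated proteins out of membranes and complexes. Their medians were -0.089, -0.12, -0.16 and -0.087, and at an unadjusted p under 0.05 limma gave 1, 0, 3 and 2 genes. Of all features, 11% were lower and 13.5% higher at that cut-off, so these counts are not read as a result. The genes were Psme1 (0.27), an activator subunit, where Psme2, another, had -0.084. Rad23b (-0.42), Ubqln1 (-0.28) and Ubqln4 (0.35) carry ubiquitinated proteins. Nploc4 (-0.38) and Syvn1 (-0.44) are a p97 cofactor and a ubiquitin ligase. All of them are named after their values were seen. The only gene of the ubiquitin and E1 list on the array was not tested.

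Promoters were examined for the binding motifs of regulators of these genes, since Nfe2l1 rose and Psmd14 and Psmb5 lay at the lower end. RefSeq (GRCm38.p6) gave an entry for 29 of the 34 genes, matched by symbol, and Psmb1, Psmb2, Psmb7, Psmc3 and Psmd7 had no entry. The 250 bases before the start were searched on both strands. The 29 genes had 31 promoters, and a gene counted if any of its promoters held the motif. The share over all promoters counts single promoters, so the units differ slightly, in favour of the members. The motif TGACNNNGC of Nfe2l1 and Nfe2l2 was found in 5 of 29 genes (17.2%) and in 10.2% of all 32851 promoters. The motif CCAAT of NF-Y was found in 12 (41.4%) and in 33.8% of all promoters. The STAT motif TTCNNNGAA was found in 0 of 29 and in 7.02% of all promoters. Of the inducible subunits, only Psmb8 held it. No match to it was found for Psmb9 or Psmb10, and whether Psmb10 had an entry is not given here. The IRF motif, TTTC and TTTC with NN between, was found in 3 of 29 (10.3%) and in 2.98% of all promoters. The genes with TGACNNNGC were Psmb5, Psmb6, Psmc6, Psmd9 and Psmd12, and those with the IRF motif were Psmb3, Psmd4 and Psmd9. A match describes letters in a window and no binding, and these shares were not tested. Psmb7, the other called member beside Psmd14, could not be examined, as it had no entry. The promoters of Psmd14, of Psmb5, next to the threshold, and of its inducible counterpart Psmb8 are shown. They run 5′ to 3′ on the gene's strand, with the motif in capitals.
Psmd14 (chr2:61711444-61711693, plus strand, CCAAT read on the other strand, 159 to 155 bases before the start): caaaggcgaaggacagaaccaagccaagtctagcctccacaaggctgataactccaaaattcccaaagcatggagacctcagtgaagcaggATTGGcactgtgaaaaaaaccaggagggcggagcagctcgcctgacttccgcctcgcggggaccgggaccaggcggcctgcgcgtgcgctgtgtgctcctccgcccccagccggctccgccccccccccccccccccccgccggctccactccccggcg
Psmb5 (chr14:54617996-54618245, minus strand, TGACNNNGC 47 to 39 bases before the start): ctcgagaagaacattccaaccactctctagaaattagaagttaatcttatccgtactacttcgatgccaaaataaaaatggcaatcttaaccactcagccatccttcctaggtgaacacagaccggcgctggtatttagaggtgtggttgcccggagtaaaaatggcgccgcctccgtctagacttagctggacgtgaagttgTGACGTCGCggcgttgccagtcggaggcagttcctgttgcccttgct
Psmb8 (chr17:34197945-34198194, plus strand, TTCNNNGAA 97 to 89 bases before the start): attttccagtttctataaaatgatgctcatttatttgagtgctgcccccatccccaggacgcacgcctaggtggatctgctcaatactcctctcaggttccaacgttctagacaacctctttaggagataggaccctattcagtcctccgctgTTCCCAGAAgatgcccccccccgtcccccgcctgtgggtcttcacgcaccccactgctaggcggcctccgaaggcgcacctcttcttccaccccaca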

How the data were processed

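Liver total RNA was hybridised to 8 arrays, 1 per mouse. The authors deposited 3 kinds of values from GenomeStudio 2011.1. The deposited intensities before normalization are on a linear scale, were rounded and reach down to -16, so a background had been subtracted. Beside them the authors deposited a detection p-value per probe and array. A second table of deposited intensities was cubic spline normalized by the authors, and was used as an alternative.

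Intensities were corrected by normexp from the detection p-values with an offset of 16, then quantile normalized and log2 transformed (neqc settings, limma 3.58.1, R 4.3.3). Probes with a detection p under 0.05 on at least 4 arrays were kept (11100 of 25697). Of all probes, 23978 have 1 gene symbol and 1719 none. The brightest probe stood for a gene, giving 7882 genes and 658 unnamed probes. Groups were compared by lmFit and eBayes with no covariate. The 3 within-liver differences were compared by the exact permutation test. The study used SAM on spline values, and its thresholds (fold over 1.7, FDR under 1%) were applied to limma's values, since SAM itself was not run.

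The members and gene lists were chosen with earlier results of these data known, and so were the lists of other pathway genes and cell type markers. Named were all members, Psmb8, Psmb9 and Psmb10, and up to 4 genes per other list that passed. Livers were given 1 by 1 for members past the threshold and, in each of 4 subcomplexes, for the 2 with the smallest p. The values of Psmd9 were added after they were seen. Each column was assigned through the replicate number of the sample title, as 1 number recurs in every TgC6hp55 description. The sources used here give no slide or scan date, so batches were not examined. Alternatives were the background correction, scaling, filter, choice of probes, variance model, array weights, the replicate block, a plain unpaired test, each liver left out, and, chosen after seeing the data, scaling over detected probes and leaving out TgC6hp55 replicates 3 and 4. The precision is limited by the number of arrays.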

Additional observations from a re-analysis of the deposited data

Results flagged for a closer look

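In 3 of the 68 groups of 4 livers examined, 1 wild type liver stood apart from the other three by a gap that took up most of the group's range, where chance flags about 1 in 20 groups. All of these were wild type replicate 1. In Psmd12 it was the highest liver, at 9.39 where the next lay at 9.28, a gap of 0.914 of the range. In Psmd5 it was the highest, at 5.71 against 5.56 (0.888 of the range). In Psmd2 it was the lowest, at 4.44 against 4.76 (0.877 of the range), on a probe near background. None of these genes was called.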

How the results depend on the processing

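The number of constitutive proteasome genes called lower, 2 in the report, was 0 with median scaling, 0 at a fold over 1.7 with an adjusted p under 0.01, 0 without TgC6hp55 replicates 3 and 4, 1 with no filter on dim probes, 1 with the plain unpaired test, and 1 to 2 with 1 liver left out. It was 3, with Psmb5 added, in 5 alternatives that changed the background correction, the normalization, the filter or the variance model. The median of -0.13 was -0.25 with median scaling, -0.18 with scaling over detected probes and -0.10 without TgC6hp55 replicates 3 and 4. The core particle had -0.25 and -0.19 under the 2 scalings. The regulatory particle had -0.25 and -0.18, -0.11 without TgC6hp55 replicates 3 and 4, and -0.12 to -0.18 with 1 liver left out. In all, 5 members near 0 changed sign once. With 1 liver left out, Psma4 ranged from -0.089 to 0.00054 (above 0 without TgC6hp55 replicate 4), Psmd2 from -0.0080 (without replicate 1) to 0.21 and Psmd4 from -0.15 to 0.013 (without replicate 3), and with median scaling Psmd10 had -0.045 and Psmd7 -0.036. Psmb8 minus Psmb5 ranged from 0.79 to 1.09 and Psmb10 minus Psmb7 from 1.12 to 1.37 with 1 liver left out, and without TgC6hp55 replicates 3 and 4 they were 0.71 and 1.25 (exact adjusted p = 0.1, where 6 livers allow no p under 0.0667). The cause of these changes was not tested. Over all features, the calls with median scaling were 140 lower and 151 higher, against 385 and 553, without wild type replicate 2 they were 254 and 355, and without TgC6hp55 replicates 3 and 4 they were 220 and 322. The labels do not say that replicate numbers pair the livers. Same-numbered livers correlated at 0.158, 0.122, 0.011 and 0.112, the highest with their own number in 3 of 4, a hint of pairing from the data that does not hold for replicate 3, so the numbers were not used as pairs. With the replicate number as a block, 2 members were called lower and the medians were the same, over all features 371 were lower and 541 higher, and Psmb8 was no longer called (adjusted p = 0.0698 from limma).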
